A study of Mus musculus with 6 samples.

Results

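The 37 genes described here carry a symbol that starts with Mapk, Map2k, Map3k or Map4k and were taken by that name alone, out of 10698 genes named on the array. All 37 had a ratio on every array, as had 9607 of the named genes. They comprised 3 MAP4K, 12 MAP3K, 6 MAP2K and 9 MAPK genes, 2 kinases activated by MAP kinases (Mapkapk2 and Mapkapk5), and 5 binding or scaffold proteins that are not kinases themselves. RAW 264.7, a mouse macrophage-like cell line, was either given lipopolysaccharide (LPS, 100 ng/ml) with LPS-binding protein (100 pM) or left untreated, and RNA was taken at 16 hours. LPS-binding protein carries LPS to the receptor complex at the cell surface. Each of 6 dual-colour arrays received RNA from both conditions, treated RNA being in Cy5 on 3 of them and in Cy3 on 3, and sets 1 to 3 exist in each orientation. Whether the sets are separate cultures is not stated in the labels. The p-values therefore cover only the spread among these samples, and that spread may be technical.

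In a MAP kinase cascade, a MAP3 kinase phosphorylates a MAP2 kinase, which phosphorylates a MAP kinase. MAP4 kinases can act on the MAP3 kinases, and scaffold proteins hold the tiers together. The terminal kinases form the ERK, JNK and p38 branches, and in macrophages all of these branches are switched on when LPS engages its receptor, largely through the MAP3 kinases TAK1 (Map3k7) and TPL2 (Map3k8). The arrays measured mRNA and not kinase activity. In RNA of a whole culture, fewer expressing cells and less RNA per cell cannot be told apart.

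Values are log2 ratios of treated over untreated cells, given as the mean ± SD of 3 sets (n = 3), after both arrays of a set were averaged. Adjusted p-values come from limma over all 9607 genes, and a gene was called at an adjusted p under 0.05. The table does not state its direction. Cy5 over Cy3 is the likely one, because the labels name the Cy5 RNA the test RNA in both orientations. If the ratios were Cy3 over Cy5, every sign given here would turn. Turned to treated over untreated, arrays correlated over all probes at 0.585 to 0.831 between orientations and at 0.77 to 0.832 within one. The number of arrays limits the precision.

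Of the 37 genes, 11 were called, 8 higher and 3 lower in treated cells. These were 29.7% of the members, and 31.4% of all genes were called, so the share of changed members was near that of the array as a whole. By direction, 21.6% of members rose against 16.8% of all genes, and 8.11% fell against 14.6%. With the direction turned, 8.11% of members would rise against 14.6% of all genes, and 21.6% would fall against 16.8%. The changes were small: 3 members (8.11%) were called with at least a 1.5-fold difference, against 11.7% of all genes, and 0 reached 2-fold, against 4.46%. All 3 were higher (7.69% of all genes), and 0 were lower at that size (4.03% of all genes). The members that rose were Mapkapk2, Map3k8, Map3k2, Mapk8ip3, Map3k20, Mapk11, Map3k3 and Mapk6, and those that fell were Map3k4, Mapk14 and Map3k6. Without set 2, 6 members were called, 5 higher and 1 lower. Calls fell over the whole array too: 22.5% of all genes were called without set 1, 23.6% without set 2 and 31.1% without set 3. On 14 members (37.8%) all 6 arrays had the same sign, against 35.6% of all genes. Of these, 9 were positive (24.3%, against 18.6% of all genes) and 5 negative (13.5%, against 17.0%). The median of the members was 0.02, and that of all genes was -0.01.

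The promoter windows of Mapkapk2, Mapk11 and Mapk14 are shown because these genes of the p38 route include the largest change among the 37 and a pair of p38 kinases called in opposite directions. They were read from RefSeq (GRCm38.p6), cover 250 bases before to 50 after a transcript start, and are written 5′ to 3′ on the gene's strand. Capitals mark matches on either strand to 6 motifs. The motifs were AP-1 (TGANTCA), CRE (TGACGTCA), ISRE (TTTCNNTTTC), GAS (TTCNNNGAA), ETS (CCGGAAG) and the NF-kappaB consensus by name, and GAS and ETS matches can overlap.
Mapkapk2, chr1:131097794-131098093, minus strand: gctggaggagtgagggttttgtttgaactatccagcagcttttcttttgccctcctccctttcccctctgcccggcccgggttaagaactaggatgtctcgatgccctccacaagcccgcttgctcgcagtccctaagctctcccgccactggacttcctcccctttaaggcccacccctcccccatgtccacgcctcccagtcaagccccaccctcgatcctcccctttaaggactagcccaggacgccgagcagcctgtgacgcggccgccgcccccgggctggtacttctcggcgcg
Mapk11, chr15:89149557-89149856, minus strand: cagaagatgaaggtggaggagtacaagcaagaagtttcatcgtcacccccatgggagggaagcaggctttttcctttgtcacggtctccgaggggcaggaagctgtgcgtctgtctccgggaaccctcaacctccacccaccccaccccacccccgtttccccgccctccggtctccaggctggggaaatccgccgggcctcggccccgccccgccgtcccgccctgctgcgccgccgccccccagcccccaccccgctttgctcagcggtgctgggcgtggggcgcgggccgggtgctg
Mapk14, the second of its 2 listed starts, chr17:28692318-28692617, plus strand: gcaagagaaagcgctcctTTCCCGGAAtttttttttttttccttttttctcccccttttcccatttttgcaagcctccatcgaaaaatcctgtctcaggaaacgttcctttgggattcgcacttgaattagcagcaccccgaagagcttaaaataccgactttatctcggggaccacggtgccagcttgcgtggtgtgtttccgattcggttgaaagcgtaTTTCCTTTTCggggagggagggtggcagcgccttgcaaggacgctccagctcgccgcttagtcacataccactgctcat

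The Mapk14 window held 1 GAS and 1 ISRE match, while the windows of Mapkapk2, Mapk11 and the other start of Mapk14 held none of the 6 motifs. Of all 32851 promoter windows, 8.3% held the GAS letters, 3.44% ISRE, 7.81% AP-1, 1.79% CRE, 8.86% ETS and 8.46% the NF-kappaB consensus. Promoters were listed for 32 of the 37 members, the others being Map3k2, Map3k8, Mapk1ip1, Map4k4 and Mapk8ip1. Of the 9 called members among these 32, 3 held any of the motifs: Mapk14, and Map3k6 and Mapk8ip3 with ETS. Among all 32 members, called or not, 10 held any of them, so the called members did not stand out. The share of all promoter windows with any of the 6 motifs was not computed. NF-kappaB matches were in windows of Map3k7, Map4k1 and Mapk7, none of which was called. A match is a run of letters and shows no binding.

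The MAP3 kinases, the entry tier where most upstream signals arrive, moved in both directions. Of 12 genes 4 rose and 2 fell, 50% against the 31.4% of all genes, with a median of -0.05. Without set 1 or without set 2 the counts were 3 higher and 1 lower. Map3k8 encodes TPL2, the kinase that links the LPS receptor to the ERK branch. Its ratios were 0.51, 0.80 and 0.63 with treated RNA in Cy5 and 0.72, 0.94 and 0.80 with treated RNA in Cy3. All 6 arrays lay above 0, and Map3k8 rose 1.66-fold (0.73 ± 0.13, adjusted p = 0.000647). The means of its 2 probes lay 0.00897 apart on the log2 scale.

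Map3k2, encoding MEKK2, which feeds the JNK and ERK5 branches, read 0.65, 0.68 and 0.83 with treated RNA in Cy5 and 0.49, 0.55 and 0.62 with treated RNA in Cy3. It rose 1.55-fold (0.64 ± 0.08, adjusted p = 0.000839), from 1 probe with a ratio on every array. Its close relative Map3k3, encoding MEKK3, stood at 0.30, 0.57 and 0.11 in sets 1, 2 and 3. Set 2 lay highest and set 3 lowest, and the rise of 1.25-fold (0.33 ± 0.23, adjusted p = 0.0455) was close to the threshold. Map3k3 was no longer called without set 2 (0.20, adjusted p = 0.197) or without set 1 (0.34, adjusted p = 0.132). Map3k20, the stress- and ribosome-sensing kinase ZAK, was steadier, at 0.42, 0.37 and 0.49, and rose 1.34-fold (0.43 ± 0.06, adjusted p = 0.0042).

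On the falling side, Map3k4 encodes MEKK4, a kinase of the p38 and JNK branches that GADD45 proteins bind. It stood at -0.30, -0.42 and -0.52 in sets 1 to 3, below 0 on all 6 arrays, and was 1.33-fold lower (-0.41 ± 0.11, adjusted p = 0.00683). Its 2 probes lay 0.00601 apart. Map3k6, encoding ASK2, stood at -0.20, -0.28 and -0.19 and was 1.17-fold lower (-0.22 ± 0.05, adjusted p = 0.0486), from 1 probe with a ratio on every array. That call was lost under 7 of 13 alternatives, among them the omission of set 1, 2 or 3 (adjusted p = 0.15, 0.178 and 0.0891).

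The other 6 MAP3 kinases were not called. Map3k7, encoding TAK1, read -0.12, -0.15 and -0.15 with treated RNA in Cy5 and 0.07, 0.40 and 0.06 with treated RNA in Cy3. The orientations did not overlap, and their mean was 0.02 ± 0.09 (95% interval -0.16 to 0.19, adjusted p = 0.89). Map3k14, encoding NIK, the kinase of the noncanonical NF-kappaB route, read 0.22, 0.06 and 0.02 with treated RNA in Cy5 and 0.11, -0.13 and -0.02 with treated RNA in Cy3. Its mean was 0.04 ± 0.11 (95% interval -0.14 to 0.22).

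Map3k5, encoding the oxidative stress kinase ASK1, read -0.05, -0.37 and -0.31 with treated RNA in Cy5 and -0.05, -0.13 and -0.23 with treated RNA in Cy3. All 6 values were below 0, but the mean of -0.19 ± 0.12 missed the threshold (adjusted p = 0.116). Map3k1, encoding MEKK1, an activator of JNK signalling, read -0.10, -0.41 and 0.00 with treated RNA in Cy5 and -0.66, -0.54 and 0.02 with treated RNA in Cy3. Set 3 lay near 0 in both orientations, and with treated RNA in Cy3 it stood apart from the other sets. That value averaged 2 probes of opposite sign in set 3. The first probe stood at -0.78, -0.71 and 0.27 in sets 1 to 3, the other at 0.02, -0.24 and -0.25. Which probe speaks for Map3k1 mRNA was not tested. The mean was -0.28 ± 0.26 (adjusted p = 0.0887), and without set 3 it was -0.43 and called (adjusted p = 0.00344). Map3k11, encoding the mixed-lineage kinase MLK3, was at -0.18 ± 0.13 (adjusted p = 0.139). In set 2 its arrays disagreed, at 0.11 with treated RNA in Cy5 and -0.69 with treated RNA in Cy3. Map3k12, encoding the dual leucine zipper kinase DLK, was at -0.11 ± 0.02 and negative on all 6 arrays (adjusted p = 0.274).

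**Figure D1:**
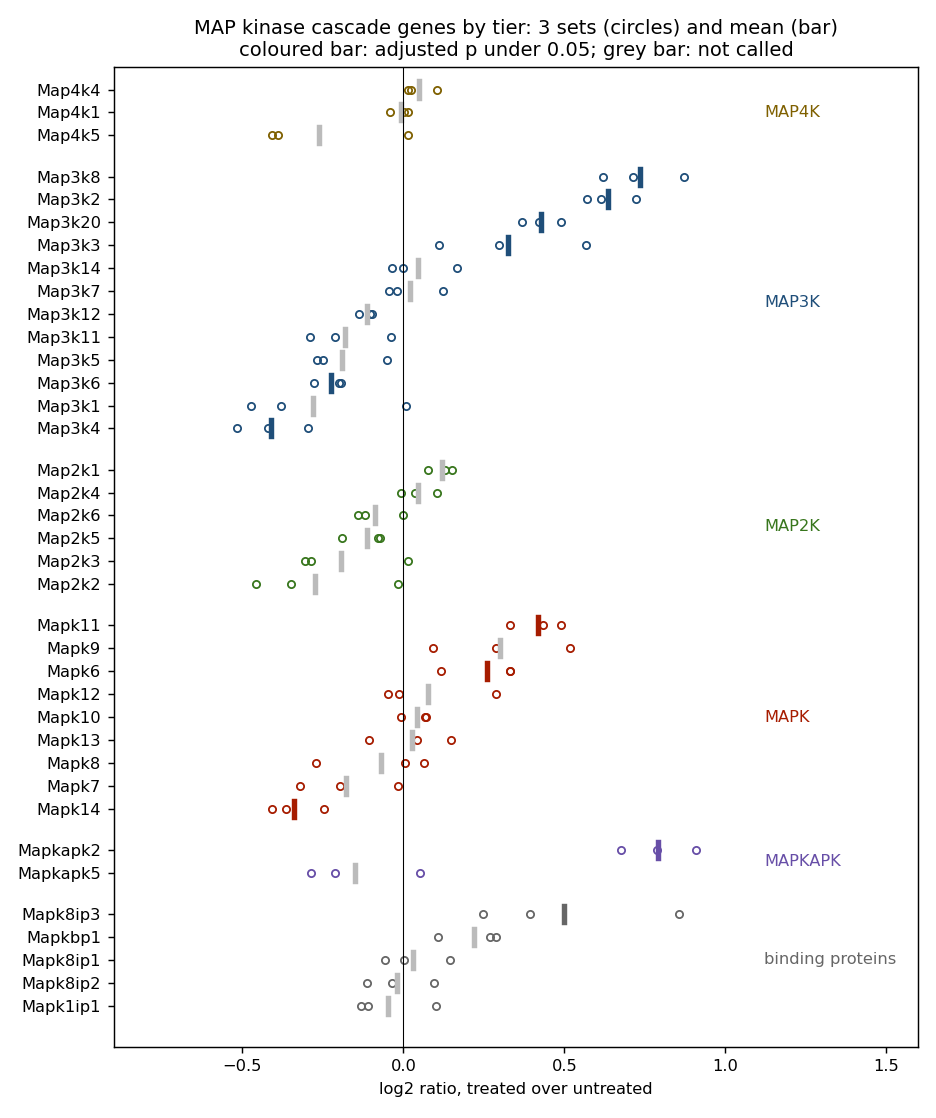
Log2 ratios of treated over untreated cells for the 37 genes, grouped by tier, with a circle for each of the 3 sets and a bar at their mean. Coloured bars mark the 11 genes with an adjusted p under 0.05; Mapkapk2 (0.79), Map3k8 (0.73) and Map3k2 (0.64) lie farthest right, and Map3k4 (-0.41) and Mapk14 (-0.34) farthest left.

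None of the 3 MAP4 kinases and none of the 6 MAP2 kinases was called by limma, where 1 gene of each tier had an unadjusted p under 0.05. Of all 9607 genes 31.4% were called and 3862 had such a p, and a tier of 3 or 6 genes gives only a coarse share to set beside this. Map4k1, encoding HPK1, a kinase mainly of blood cells, was at -0.01 ± 0.03 with 3 probes (95% interval -0.17 to 0.15). Map4k4 read 0.02, 0.17 and 0.03 with treated RNA in Cy5 and 0.01, 0.04 and 0.02 with treated RNA in Cy3, a mean of 0.05 ± 0.05 (95% interval -0.12 to 0.21). Map4k5 was at -0.41 and -0.39 in sets 1 and 2 and at 0.02 in set 3, with a mean of -0.26 ± 0.24 (adjusted p = 0.0986). Its arrays read -0.53, -0.79 and -0.12 with treated RNA in Cy5 and -0.29, 0.01 and 0.15 with treated RNA in Cy3. In set 2 the fall was thus seen only with treated RNA in Cy5. Without set 3 Map4k5 was at -0.40 and called (adjusted p = 0.00541), from set means that do not show this difference between arrays.

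The MAP2 kinases are the narrow middle of the cascade, each serving 1 branch or a pair of them. Their median was -0.10. Map2k1, encoding MEK1 of the ERK branch, read 0.25, 0.31 and 0.16 with treated RNA in Cy5 and 0.05, -0.05 and -0.01 with treated RNA in Cy3. Its mean was 0.12 ± 0.04 (95% interval -0.04 to 0.28, adjusted p = 0.259). Map2k2, encoding MEK2 of the same branch, read -0.04, -0.47 and -0.41 with treated RNA in Cy5 and 0.01, -0.45 and -0.29 with treated RNA in Cy3. Set 1 lay near 0 and the other sets below it, so that the mean of -0.28 ± 0.23 was not called (adjusted p = 0.0784), while without set 1 it was -0.40 and called (adjusted p = 0.0332).

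Map2k3 and Map2k6 encode MKK3 and MKK6, the activators of p38. Map2k3 read 0.02, -0.55 and -0.34 with treated RNA in Cy5 and 0.01, -0.06 and -0.24 with treated RNA in Cy3, a mean of -0.19 ± 0.18 (adjusted p = 0.152). Map2k6 read -0.17, 0.46 and 0.18 with treated RNA in Cy5 and -0.07, -0.46 and -0.47 with treated RNA in Cy3. These values scattered to both sides of 0, around a mean of -0.09 ± 0.08 (adjusted p = 0.436). Map2k5, encoding MEK5 of the ERK5 branch, was at -0.11 ± 0.07 (95% interval -0.28 to 0.05).

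Map2k4, encoding MKK4 of the JNK and p38 branches, read 0.04, 0.05 and -0.03 with treated RNA in Cy5 and 0.03, 0.16 and 0.02 with treated RNA in Cy3, a mean of 0.04 ± 0.06 (adjusted p = 0.709). That mean joined a pair of probes that disagreed. The first stood at -0.24, -0.24 and -0.26 in sets 1 to 3 (adjusted p = 0.0372 in limma over probes), the other at 0.31, 0.45 and 0.25 (adjusted p = 0.0163). Every array put the first probe below 0 and the other above it, although the annotation gives both the same source sequence. Of 21 members with several probes, 1 had probes called in opposite directions, and so had 28 of 1846 genes on the array (1.52%). Probe sequences were not analysed here, so which probe speaks for Map2k4 mRNA was not tested.

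**Figure D2:**
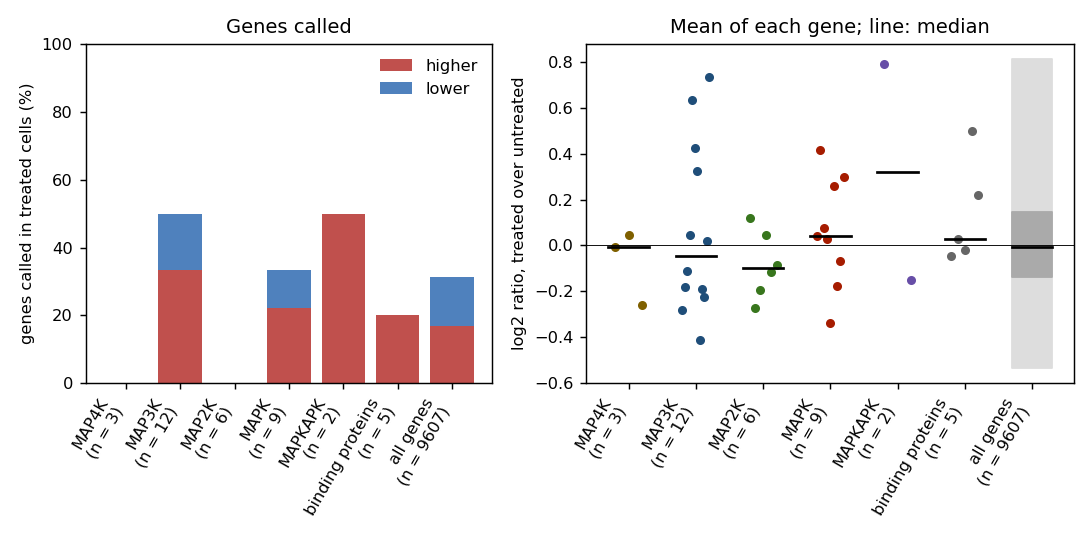
Left, the percentage of genes in each tier that were called higher or lower in treated cells, beside all 9607 genes. Right, the mean log2 ratio of each gene with a line at the tier's median; for all genes the light band runs from the 5th to the 95th percentile (-0.54 to 0.81) and the dark band over the middle part (-0.14 to 0.15). The 0 called MAP4 and MAP2 kinases and the wide spread of the MAP3 kinases can be seen.

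Among the 9 MAP kinases proper, 2 rose and 1 fell (33.3%, against 31.4% of all genes), with a median of 0.04. Without set 1, 1 was higher and 1 lower, without set 2, 1 and 0, and without set 3, 3 and 1. Mapk14 encodes p38 alpha, the main p38 kinase of macrophages. It read -0.30, -0.41 and -0.42 with treated RNA in Cy5 and -0.20, -0.41 and -0.31 with treated RNA in Cy3. It was below 0 on all 6 arrays and 1.27-fold lower (-0.34 ± 0.08, adjusted p = 0.012), a call lost without set 2 (-0.31, adjusted p = 0.0602). Mapk11, encoding p38 beta, stood at 0.49, 0.33 and 0.43 in sets 1 to 3, above 0 on all 6 arrays, and rose 1.34-fold (0.42 ± 0.08, adjusted p = 0.00521). This rests on 1 probe, as the other probe of Mapk11 had no ratio on any array. Mapk11 and Mapk14 were set side by side after their values were seen. Mapk11 minus Mapk14 came to 0.74, 0.74 and 0.80 in the 3 sets (0.76 ± 0.03), and an exact two-sided sign-flip permutation test gave p = 0.25, the smallest that 3 sets allow. With Mapk11 above 0 and Mapk14 below 0 in every set, no other p was possible, so nothing is drawn from that test.

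The other p38 kinases had means close to 0. Mapk12, p38 gamma, was at 0.08 ± 0.18 (95% interval -0.14 to 0.29), and Mapk13, p38 delta, at 0.03 ± 0.13 (95% interval -0.16 to 0.22). Arrays of a set could disagree: in set 1 Mapk12 read 0.29 with treated RNA in Cy5 and -0.31 with treated RNA in Cy3. Mapk13 read 0.14 and -0.35 there. In the gene order of GRCm38.p6, Mapk12 lies next to Mapk11 and Mapk14 next to Mapk13, with 0 protein-coding genes between them. In each neighbouring pair 1 gene was called and the other was not, and that difference was not tested.

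No gene of the JNK branch was called by limma (0 of 4, 1 with an unadjusted p under 0.05). Of all genes 31.4% were called, and 4 genes give only a coarse share to set beside this. The means of Mapk8, Mapk10 and Map2k4 also joined arrays or probes of opposite sign. Mapk8, encoding JNK1, read -0.97, -1.23 and -1.21 with treated RNA in Cy5 and 1.09, 1.24 and 0.67 with treated RNA in Cy3. The orientations did not overlap, and their mean was -0.07 ± 0.18 (adjusted p = 0.637). One of its probes carried this split, at -2.05, -2.15 and -2.20 against 2.11, 2.57 and 1.56, so, with ratios read as Cy5 over Cy3, the Cy3 channel was brighter than the Cy5 channel on that probe whichever RNA it held. The other probe lay between -0.30 and 0.12 on all arrays. In the 6-array model with a dye term Mapk8 was the 1 member called for dye (adjusted p = 0.00161), out of 35 genes (0.364%). The dye call was lost without set 1 or set 2 (adjusted p = 0.0956 and 0.179), where only 4 and 5 genes of the whole array were called for dye. The dye term itself changed little, from -1.07 with all sets to -1.09 without set 1 and -0.98 without set 2.

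Mapk9, encoding JNK2, read 0.18, 0.03 and -0.12 with treated RNA in Cy5 and 0.40, 1.01 and 0.30 with treated RNA in Cy3. The orientations did not overlap. Its mean was 0.30 ± 0.21 (adjusted p = 0.0537), and it was called in 5 of 13 alternatives, among them the omission of set 3 (0.40, adjusted p = 0.00651). The 2 probes of Mapk9 had means of 0.46 and 0.14 (adjusted p = 0.031 and 0.278 in limma over probes). Mapk10, encoding JNK3, known mainly from the nervous system, was at 0.04 ± 0.04 (95% interval -0.12 to 0.21). Its arrays read 0.22, -0.44 and -0.31 with treated RNA in Cy5 and -0.08, 0.58 and 0.29 with treated RNA in Cy3. Both arrays of every set had opposite signs, so the small SD of the set means does not show how far the arrays scattered.

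Of the ERK-related kinases, Mapk6 encodes the atypical kinase ERK3. It stood at 0.33, 0.33 and 0.12 and rose 1.2-fold (0.26 ± 0.12, adjusted p = 0.0443) with 3 probes on one side of 0, a call lost in 7 of 13 alternatives, among them the omission of set 1 or set 2 (adjusted p = 0.203 and 0.172). Mapk7, encoding ERK5, was at -0.18 ± 0.15 (adjusted p = 0.161). Mapk3 (ERK1) and Map2k7 (MKK7) were not analysed here, and the ERK branch is described by Map2k1 and Map2k2.

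**Figure D3:**
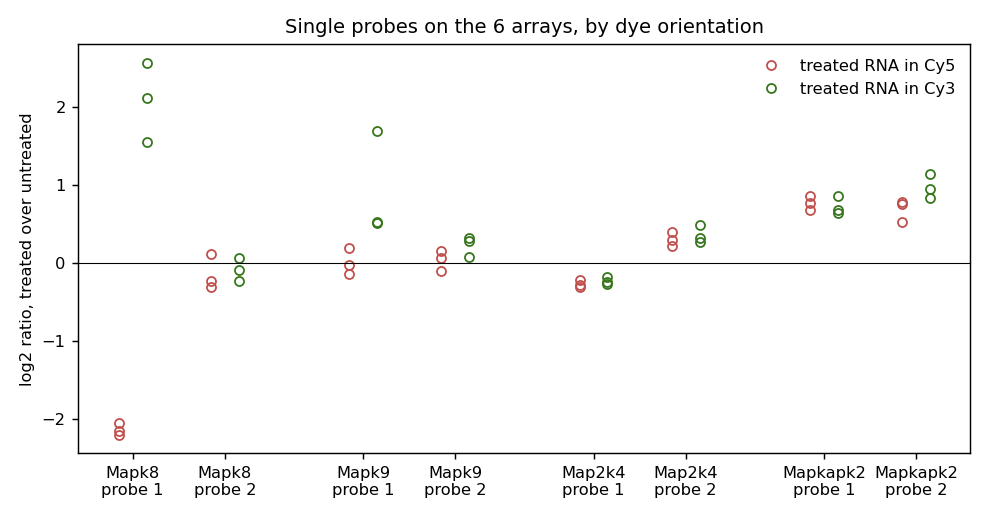
Log2 ratio of treated over untreated cells for single probes of 4 genes on the 6 arrays, in red with treated RNA in Cy5 and in green with treated RNA in Cy3. Mapk8 probe 1 splits by dye, the Map2k4 probes lie on opposite sides of 0 in both orientations, and the Mapkapk2 probes lie above 0 on all arrays.

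Downstream of p38, Mapkapk2 showed the largest change of all 37 genes. It encodes MK2, which p38 phosphorylates and which stabilises cytokine mRNA such as that of Tnf through the RNA-binding protein encoded by Zfp36. Its ratios were 0.77, 0.82 and 0.61 with treated RNA in Cy5 and 0.81, 1.00 and 0.74 with treated RNA in Cy3. Both probes lay above 0 on all arrays, and Mapkapk2 rose 1.73-fold (0.79 ± 0.12, adjusted p = 0.000442). Mapkapk5, encoding the related kinase PRAK, stood at 0.05, -0.29 and -0.21 (-0.15 ± 0.18, adjusted p = 0.268).

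Among the 5 binding proteins, 1 rose (20%, against 16.8% of all genes). Mapk8ip3, encoding the JNK scaffold and motor adaptor JIP3, stood at 0.25, 0.86 and 0.39 in sets 1 to 3. Set 2 lay far above the others, and the rise of 1.41-fold (0.50 ± 0.32, adjusted p = 0.0198) was no longer called without it (0.32, adjusted p = 0.0566). The JNK scaffolds Mapk8ip1 (0.03 ± 0.10) and Mapk8ip2 (-0.02 ± 0.11) had means near 0, as had Mapk1ip1 (-0.05 ± 0.13). In set 2 Mapk8ip2 read -0.29 with treated RNA in Cy5 and 0.21 with treated RNA in Cy3. Mapkbp1, a JNK-binding protein, stood at 0.27, 0.29 and 0.11 (0.22 ± 0.10, adjusted p = 0.0643) and was called without set 3 (0.28, adjusted p = 0.0459).

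Further genes that act on or with the cascade were grouped by role. These lists were drawn up with earlier results of these data known, and their counts stand beside the 31.4% of all genes called. Of 8 measured MAP kinase phosphatases and related tyrosine phosphatases, which switch MAP kinases off, 5 rose and 1 fell (75%), with a median of 0.65. Dusp2 stood at 1.62, 1.76 and 1.75 and rose 3.27-fold (1.71 ± 0.08, adjusted p = 1.11e-05). Dusp1, whose product inactivates p38 and JNK, stood at 1.03, 1.07 and 1.07 and rose 2.08-fold (1.06 ± 0.02, adjusted p = 7.23e-05). Dusp14 was 1.66-fold lower (-0.73 ± 0.24, adjusted p = 0.00206), and without set 3 the list had 2 lower genes.

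Of 11 measured genes grouped around TAK1, TPL2 and p38, 4 rose and 2 fell (54.5%), with a median of 0.04. The group is not limited to proteins that bind a MAP3 kinase. Tnip1, an inhibitor of NF-kappaB signalling that binds ubiquitin, rose 2.73-fold (1.45 ± 0.09, adjusted p = 2.44e-05). Gadd45a, whose product binds and activates the kinase encoded by Map3k4, rose 2.71-fold (1.44 ± 0.05, adjusted p = 1.94e-05), while Map3k4 itself was among the genes that fell. Tab3 (-0.33 ± 0.20, adjusted p = 0.0348) and Tab1 (-0.25 ± 0.08, adjusted p = 0.0375), partners of TAK1, were lower. Without set 1 neither Tab3 (adjusted p = 0.189) nor Tab1 (adjusted p = 0.0959) was called, and Tab1 was not called without set 2 or set 3 either (adjusted p = 0.1 and 0.148).

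Upstream of the RAF kinases, 5 of 13 genes of RAS activation rose and 3 fell (61.5%), with a median of -0.07. The small GTPase Rras stood at 0.78, 1.36 and 0.49 and rose 1.84-fold (0.88 ± 0.44, adjusted p = 0.00563), and Nf1, which switches RAS off, rose 1.67-fold (0.74 ± 0.16, adjusted p = 0.000837). Nras was 1.59-fold lower (-0.67 ± 0.20, adjusted p = 0.00201) and the adaptor Shc1 1.31-fold lower (-0.39 ± 0.23, adjusted p = 0.0239), the call on Shc1 being lost without set 1 (-0.26, adjusted p = 0.119). Without set 1 the list had 1 lower gene in place of 3, and likewise when only treated RNA in Cy5 was used. Of the RAF tier, Araf and Ksr1 were measured, and Araf rose 1.22-fold (0.28 ± 0.10, adjusted p = 0.0274). Araf was not called when set 1 or set 2 was omitted (adjusted p = 0.104 and 0.128). Of 9 further STE20 kinases, Stk10 rose (0.39 ± 0.13, adjusted p = 0.01) and Stk24 fell (-0.52 ± 0.04, adjusted p = 0.00173). Without set 3, 2 of these 9 were higher.

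Of 9 further scaffolds and regulators, Pea15a, which holds ERK in the cytoplasm, rose (0.50 ± 0.16, adjusted p = 0.0046), and Pebp1, which binds RAF, fell (-0.34 ± 0.09, adjusted p = 0.012; 0.0597 without set 2). None of the 4 measured Sprouty and related RAS-ERK inhibitors was called by limma, where 2 had an unadjusted p under 0.05. Among kinases that MAP kinases activate, Mknk1 (0.44 ± 0.16, adjusted p = 0.00811) rose and Mknk2 (-0.37 ± 0.04, adjusted p = 0.00707) fell. Both act on the translation factor eIF4E. Mknk1 lost its call without set 1 (adjusted p = 0.0546), and Mknk2 with exact zeros kept as ratios (adjusted p = 0.122).

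Of 22 listed substrates of MAP kinases or of kinases downstream of them, mainly transcription factors and RNA-binding proteins, 7 rose and 4 fell (50%). Their median was 0.12. Myc rose most, 11.1-fold (3.47 ± 0.46, adjusted p = 1.5e-05), followed by Ddit3 (3.25 ± 0.22, adjusted p = 2.65e-06), whose product p38 phosphorylates. Elk3 (-0.99 ± 0.12, adjusted p = 0.000168) and Srf (-0.86 ± 0.12, adjusted p = 0.000319), which bind serum response elements together, were lower. The largest value among the 37 cascade genes, 0.79 for Mapkapk2, compares with these on the same scale of differences.

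**Figure D4:**
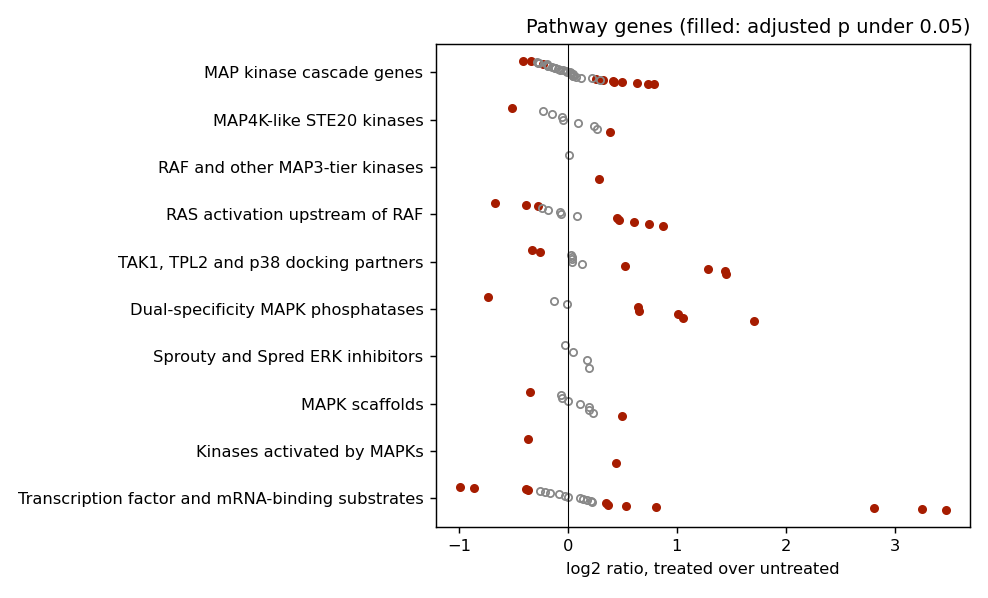
Mean log2 ratio of treated over untreated cells for the 37 cascade genes and for each group of further pathway genes, filled where the adjusted p was under 0.05. The cascade genes lie between -0.41 and 0.79, while Myc (3.47), Ddit3 (3.25) and Dusp2 (1.71) lie outside that range.

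As a check of the cell type, ratios carry no level and cannot show whether a marker is present. Of 7 measured macrophage markers 6 were higher and 1 lower in treated cells (100% called, against 31.4% of all genes). Fcgr1 (2.13 ± 0.02) and Adgre1 (1.79 ± 0.13) led the higher ones. Csf1r was lower (-0.27 ± 0.08), though not called without set 1 or set 2 (adjusted p = 0.0837 and 0.13). Of 13 markers of other cell types, 3 were higher and 0 lower (23.1% called, against 31.4% of all genes). Pecam1 (0.39 ± 0.08) and Cd79a (0.35 ± 0.12) led them. The share called was thus not above that of all genes, and the part of these markers in the results above was not tested.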

How the data were processed

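Per the labels, total RNA of treated and untreated RAW 264.7 cells was labelled with Cy3 and Cy5 and hybridised to 6 dual-colour arrays of 16281 probes. The labels name the line as 264.4 in places. The deposited values are log2 ratios of both channels of an array. How background and normalization were handled is not given in the sources used here. The median of every deposited column is 0, its origin unknown, and the highest ratio is 100, so higher ones look capped.

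Exact zeros (9.56% to 12.9% of an array's probes) were taken as missing. Probes with a ratio on all 6 arrays and 1 gene symbol in the platform annotation (of 13738 such probes; 52 named several and 2491 none) were averaged per gene, which gave 9607 genes. Of the members' 74 probes, 61 were kept. Arrays were turned by the dyes, the orientations of a set averaged, and the 3 set values tested against 0 with limma 3.58.1 (R 4.3.3; two-sided, Benjamini-Hochberg, threshold 0.05). The fit was tested on simulated data. Figures used Python 3.11.15 and matplotlib 3.10.9.

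The members, pathway lists and tests were chosen with earlier results of these data known. Every member is named. Values on all arrays are given for called members with an absolute log2 ratio of at least 0.5 and for core genes fixed by name, not all of which are reported here. Array values of Map4k5 and Mapk10 are added because arrays of the same set disagreed. In some sets they also disagreed for other members, among them Map3k11, Mapk12, Mapk13 and Mapk8ip2. The SD of the set means does not show that scatter. From each list up to 2 called genes in each direction, those with the largest changes, are named. Alternatives covered the sets left out, the set number as a block, each dye orientation, zeros, scaling, variance moderation, missing ratios and the summary of probes.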

Additional observations from a re-analysis of the deposited data

Results flagged for a closer look

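Mapk8 differed between the dye orientations. Its mean with treated RNA in Cy5 minus that with treated RNA in Cy3 was -2.14 on the log2 scale, from means of -1.14 and 0.999, and the dye term was called in the 6-array model of limma (adjusted p = 0.00161). The cause was not tested.

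Across the 6 arrays of each of the 37 genes, 1 gene had a value far from its others. The highest array of Map4k4, at 0.166, lay further from its neighbour than Dixon's criterion for 6 values allows. Chance flags about 1 in 20 groups of values.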

How the results depend on the processing

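Leaving out 1 set at a time gave 6 to 14 called members (5 to 10 higher, 1 to 4 lower), against 11 with all sets (8 and 3). The lowest counts, 6, 5 and 1, came without set 2. Of all genes 22.5% to 31.1% were called with a set left out, against 31.4% with all sets. Leaving out a set also gave 0 to 1 members called for dye, out of 4 to 17 genes. With the 6 arrays as separate values and no replicate block, 5 members were lower and 15 called in all, with 38% of all genes called. With the set number as a random replicate block, 11 members were called, 8 higher and 3 lower. In that fit 32.1% of all genes were called, and the consensus correlation within a set number was 0.393. Deviations of same-numbered arrays correlated at 0.219, 0.0789 and 0.57 in sets 1, 2 and 3, and 4 of 6 arrays correlated best with their own number. These correlations were all positive but uneven, so whether the set numbers pair the samples is not settled by them. Other settings (each orientation alone, zeros kept, quantile normalization, centring again, robust moderation, a looser filter, the probes' median) gave 8 to 12 called members. They gave 22.5% to 32.3% of all genes called. Map3k2, Map3k20, Map3k4, Map3k8, Mapk11 and Mapkapk2 were called in all 13 alternatives, Mapk14 and Mapk8ip3 in 12, Map3k3 in 8, and Map3k6 and Mapk6 in 6. Mapk8 was called on the arrays of each orientation alone in opposite directions, at -1.14 with treated RNA in Cy5 and 0.999 with treated RNA in Cy3. The causes of these differences were not tested. Signal over background is not given, so what dim probes limit is unknown.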

Other observations

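Of the members' 74 probes, 8 had no ratio on any array and 5 had a ratio on some of them. A probe of Map3k2 gave 2.44 on its 1 array, set 2 with treated RNA in Cy3. A probe of Map2k6 gave 1.51 on its 1 array, set 1 in the same orientation. A probe of Mapk12 gave -0.50 and -0.53 on 2 arrays with treated RNA in Cy5. A probe of Mapk10 had a mean of -0.05 over 5 arrays, and a probe of Mapk8ip1 a mean of 0.01 over 2. These probes enter only the alternatives that keep zeros as ratios or accept missing ratios. With zeros kept, Map3k2 was at 0.52 and Map2k6 at 0.08.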
